A study of Mus musculus with 6 samples.

Results

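The Myc, Max and Mxd network comprises transcription factor genes that share a basic helix-loop-helix leucine zipper. Its 10 members (Myc, Mycn, Max, Mxd1, Mxd3, Mxd4, Mxi1, Mnt, Mga and Mlx) were picked by gene symbol among the 43346 entries of an RNA sequencing table, and each was found. The rule uses no measured value, but the set was proposed with earlier results of these data known. The cells were MC3T3-E1, an established mouse line of osteoblast precursors. A control line and a line labelled Rorβ-CRISPR (KO), named for editing of the nuclear receptor gene Rorb, were each represented by 3 libraries. After reaching confluence, all had spent 2 days in osteoblast medium. How many edited clones the line holds is not stated, nor whether a replicate is its own culture, so a p-value here reflects the spread among libraries alone, which may be technical.

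MYC proteins pair with MAX and bind E-box DNA, where they recruit coactivators and raise the transcription of genes for ribosome production, metabolism and growth. MXD proteins, MXI1 and MNT pair with MAX as well, bind the same sites and recruit SIN3 corepressors, and several of them rise as cells stop dividing and differentiate. MGA carries MAX into a Polycomb complex, and MLX pairs with the glucose-responsive MondoA protein as well as with some of the repressors.

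Reads in genes numbered 34662707 to 42603315 per library. Rorb had 1, 3 and 0 reads in control, against 69, 78 and 111 in libraries labelled Rorβ-CRISPR, a ratio per effective library size of 58.8 (exact 95% counting interval 22.7 to 217). The targeted RNA was thus higher, not lower, under the edited label, so directions are given by label. The entries Yam1, AY036118 and Lars2, known to collect ribosomal RNA reads, held 25.4%, 17.9% and 16.9% of reads in control and 15.2%, 13.1% and 13.9% in the other group. All 9 osteoblast markers looked at were expressed, and their sum was 65507 to 67877 in control and 38559 to 39897 in the other group. The collagen gene Col1a2 is a large part of that sum, whereas the median log2 fold change of the 9 markers was 0.22. Of the 9 markers, 5 were higher, among them the mineralisation genes Ibsp (128 ± 3.82 to 491 ± 26.7) and Alpl (10.9 ± 0.387 to 22.8 ± 1.39). The other 4 were lower, among them the collagen gene Col1a2 (30527 ± 339 to 17252 ± 267) and Spp1 (408 ± 5.02 to 227 ± 3.73). Over all tested genes, 32.9% were called higher and 33.3% lower. Summed endothelial markers stayed at 0.173 to 0.460 in control and 0.135 to 0.434 in libraries labelled Rorβ-CRISPR, with Cdh5 and Kdr at 0. Macrophage and blood markers summed to 20.3 to 23.4 in control and 14.2 to 15.2 in the other group, with Emr1 at 0. Chondrocyte markers summed to 322 to 344 in control and 224 to 238 in the other group, and skeletal muscle markers to 6.51 to 7.14 in control and 1.62 to 2.11. Neuron markers summed to 56.1 to 61.9 in control and 59.2 to 66.9 in the other group. Adipocyte markers summed to 0.0990 to 0.337 in control and 0.162 to 0.499 in the other group. The part of these cell types in the results was not tested. The labels name no batch. In bulk RNA, fewer cells of a type and less RNA per cell cannot be told apart.

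The promoters of 5 members are shown, as the 250 bases before an annotated start (GRCm38.p6, read 5′ to 3′ on the gene's strand). That start need not be the RefSeq gene start used below for chromosome order. In Mga and Mlx the RefSeq gene start lies upstream of the window, and in Mnt inside it. Max, Mnt and Mga are given because they rose with Myc, and Mnt, Mxd4 and Mlx because their windows hold the E-box CACGTG, the site to which MYC and MXD pairs with MAX bind. Capitals mark CACGTG, or the related CACGCG read on either strand.
Max (chr12:76962249-76962498, minus strand): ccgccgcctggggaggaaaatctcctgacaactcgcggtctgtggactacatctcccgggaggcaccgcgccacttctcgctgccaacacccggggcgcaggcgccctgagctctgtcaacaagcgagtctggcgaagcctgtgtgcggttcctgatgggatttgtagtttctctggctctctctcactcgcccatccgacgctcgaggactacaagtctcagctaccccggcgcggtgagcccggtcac
Mnt (chr11:74830674-74830923, plus strand): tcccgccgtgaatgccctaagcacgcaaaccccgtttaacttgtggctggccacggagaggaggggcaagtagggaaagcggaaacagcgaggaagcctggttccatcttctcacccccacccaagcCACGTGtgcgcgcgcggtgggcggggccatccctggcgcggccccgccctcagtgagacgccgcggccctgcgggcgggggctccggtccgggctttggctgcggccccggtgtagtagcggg
Mga (chr2:119896978-119897227, plus strand): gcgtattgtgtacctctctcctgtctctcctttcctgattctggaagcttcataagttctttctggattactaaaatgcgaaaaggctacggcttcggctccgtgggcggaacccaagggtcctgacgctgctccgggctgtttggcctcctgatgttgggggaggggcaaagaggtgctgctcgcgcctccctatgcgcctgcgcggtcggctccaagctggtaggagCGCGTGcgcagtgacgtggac
Mxd4 (chr5:34187711-34187960, minus strand): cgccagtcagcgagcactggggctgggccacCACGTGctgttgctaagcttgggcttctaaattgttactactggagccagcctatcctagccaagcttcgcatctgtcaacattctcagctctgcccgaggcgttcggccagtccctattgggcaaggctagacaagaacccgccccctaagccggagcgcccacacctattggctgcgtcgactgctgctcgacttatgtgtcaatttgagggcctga
Mlx (chr11:101087040-101087289, plus strand): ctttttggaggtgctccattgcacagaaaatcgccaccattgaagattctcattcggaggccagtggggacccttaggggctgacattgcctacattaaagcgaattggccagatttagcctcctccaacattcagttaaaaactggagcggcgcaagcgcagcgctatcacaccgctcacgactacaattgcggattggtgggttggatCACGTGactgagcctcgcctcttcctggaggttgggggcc
The table held promoters for 9 of the 10 members, with 11 windows in all, since Mxi1 has several starts. The member without an entry was Myc, so the Myc promoter was not searched for any of these motifs. CACGTG, which reads the same on both strands, stood in 3 of the 11 windows and in 6.02% of 32851 mouse promoter windows of the same length. It lay 123 bases before the annotated start that ends the window in Mnt, 219 in Mxd4 and 40 in Mlx. CACGCG or its reverse complement CGCGTG stood in 1 of the 11, that of Mga, 21 bases before the start, and in 7.62% of all windows. AGGTCA or its reverse complement TGACCT, the core motif known for ROR receptors, was in 0 of the 11 and in 14.02% of all windows. These are matches of letters, not measured binding. Of the 3 members with CACGTG in the window, Mnt rose and Mxd4 and Mlx were not called.

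Levels are given as the authors' TMM-scaled reads relative to effective library size, called values here. Differences are log2 fold changes from limma-trend on log2(value + 1), as labelled Rorβ-CRISPR minus control, with Benjamini-Hochberg adjustment over all 13498 tested genes. Of the 10 members, 9 passed the filter (value 1 or more in 3 or more libraries). Myc, Max, Mnt and Mga rose, 0 fell, and Mxd1, Mxd3, Mxd4, Mxi1 and Mlx were not called at an adjusted p of 0.05. Among all tested genes 32.9% were called higher and 33.3% lower, so the 4 members called higher of 9 (44.4%) lie near the background as a count. The groups did not overlap in the same 4 members (44.4%), all of them higher. Over all tested genes, 33.9% were separate in the higher direction and 68.4% in either direction. The 9 members had a median of 0.08 on the log2 scale, beside 0.0025 for every tested gene. What sets 1 member apart is size: tested against a fold of 1.5, Myc was the single member called, where 3.06% of tested genes were called higher, 4.78% lower and 7.84% either way. After centring each chromosome on its median, 31.4% of tested genes were higher and 31.6% lower, and edgeR on recovered reads called 66.1% either way, against 66.2% here. With other factors the split of calls differs, from 49.7% higher with the authors' scaling to 78.7% with library size only, which moves the median gene upward by 0.21 (log2).

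Myc encodes the MYC protein itself, the network's main activator. Its values were 68.5, 67.2 and 67.0 in control, against 190.4, 187 and 195 in libraries labelled Rorβ-CRISPR. The spread within a group was small (CV 1.25% in control and 2.07% in the other group), and the lowest value of one group was far above the highest of the other. Myc rose 2.82-fold in the ratio of means, from 67.6 ± 0.847 to 191 ± 3.95 (SD, n = 3 each). The log2 fold change was 1.48 (SE 0.032, 95% interval 1.42 to 1.55, adjusted p = 1.46e-39). Of the 13498 tested genes, 54 (0.4%) had a larger one. For Myc the authors' deposited table lists a 2.82-fold rise. Its reads, 2533 to 2706 per control library and 7032 to 8613 in the other group, give a counting CV of 1.96% and 1.11%.

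Mycn, the MYC gene best known from the nervous system and embryo, was almost unread. It had 0 reads in 5 libraries and 1 read in the second library labelled Rorβ-CRISPR, below the 3 reads that a count of 0 allows in each library. No fold is given, and a difference was not detectable at this depth. Among MYC genes outside the member list, Mycl had 2 reads in all, so Myc was the one MYC gene read at depth in both lines.

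Max encodes the obligate partner of MYC, the MXD proteins, MNT and MGA. Values of Max were 60.8, 61.4 and 58.8 in control and 69.5, 74.0 and 70.1 in libraries labelled Rorβ-CRISPR. The groups did not overlap, and the rise from 60.3 ± 1.33 to 71.2 ± 2.44 was 1.18-fold (log2 fold change 0.23, SE 0.039, adjusted p = 6.02e-07). Max therefore rose by much less than Myc in the same libraries. Per kilobase of exon, the level of Myc divided by that of Max was 0.896 ± 0.0182 in control and 2.15 ± 0.109 in the other group.

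The MXD genes encode repressors that compete for MAX. Mxd4 had values of 323, 332 and 347 in control and 345, 346 and 340.4 in libraries labelled Rorβ-CRISPR. These ranges overlapped, and the log2 fold change of 0.042 (95% interval -0.0098 to 0.093, adjusted p = 0.148) did not pass. With the authors' scaling, Mxd4 stood out by its level and not by its difference. Mxd4 was called lower after chromosome centring (-0.16) and higher with library size only (0.27).

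Mxd1 is known to rise with differentiation in several lineages. It had values of 28.6, 29.4 and 30.3 in control and 30.9, 29.4 and 27.7 in the other group, with overlap (log2 fold change -0.0050, 95% interval -0.11 to 0.10, adjusted p = 0.939). Mxd3, an MXD gene linked to S phase, gave 18.4, 18.8 and 17.8 in control and 18.7, 19.2 and 20.4 in libraries labelled Rorβ-CRISPR. The lowest of the latter lay below the highest control value, and the log2 fold change of 0.081 (95% interval -0.042 to 0.20, adjusted p = 0.242) did not pass. Mxi1, which encodes the MXD-type repressor MXI1, had 37.3, 39.7 and 40.7 in control and 41.3, 40.04 and 39.6 in the other group (log2 fold change 0.039, 95% interval -0.054 to 0.13, adjusted p = 0.472), and the groups overlapped. Of these 4 genes, the upper bound of the interval was highest for Mxd3, at a 1.152-fold rise. That bound holds for the authors' scaling. With library size only, all 4 were called higher, at 0.21 to 0.30, as were 54% of all tested genes. After chromosome centring Mxd3, Mxd4 and Mxi1 lay below 0 and Mxd1 above it.

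Mnt encodes the widely expressed repressor partner of MAX, often described as the standing antagonist of MYC. It had values of 29.0, 27.1 and 29.5 in control and 34.2, 34.5 and 35.1 in libraries labelled Rorβ-CRISPR. All 3 of the latter lay above all 3 control values, and Mnt rose 1.21-fold, from 28.5 ± 1.26 to 34.6 ± 0.445 (a log2 difference of 0.27, SE 0.050, adjusted p = 5.64e-06). Mga, the largest protein of the network, with a second DNA-binding domain of the T-box type, had 50.3, 49.4 and 51.6 in control and 62.5, 66.5 and 61.9 in the other group. The groups were again separate. Mga rose 1.26-fold, from 50.4 ± 1.08 to 63.6 ± 2.49 (a log2 difference of 0.33, SE 0.041, adjusted p = 7.48e-10), the next in size after Myc among the members. The rises of Myc, Max, Mnt and Mga were called under every scaling tried, and no scaling turned their direction.

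Mlx, the gene of the MAX-like protein of the glucose-sensing branch, had values of 36.3, 37.1 and 34.7 in control and 34.6, 35.8 and 32.3 in libraries labelled Rorβ-CRISPR. They overlapped, and the log2 fold change of -0.073 (95% interval -0.17 to 0.025, adjusted p = 0.186) did not pass. With library size only it was 0.15 and also not called. In the GENCODE annotation of GRCm38, 19.4% of the exon bases of Mlx are shared with Psmc3ip on the other strand. The strand setting of the count is not given in the sources used here, so reads there cannot be told apart and the Mlx value is uncertain. The shares were 7.91% for Mxd3 with Prelid1, 13.2% for Mxd4 with the antisense gene Gm42846 and 2.91% for Mxi1 with Gm10197. Myc, Max, Mxd1, Mnt and Mga had no overlapping exon.

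**Figure D1:**
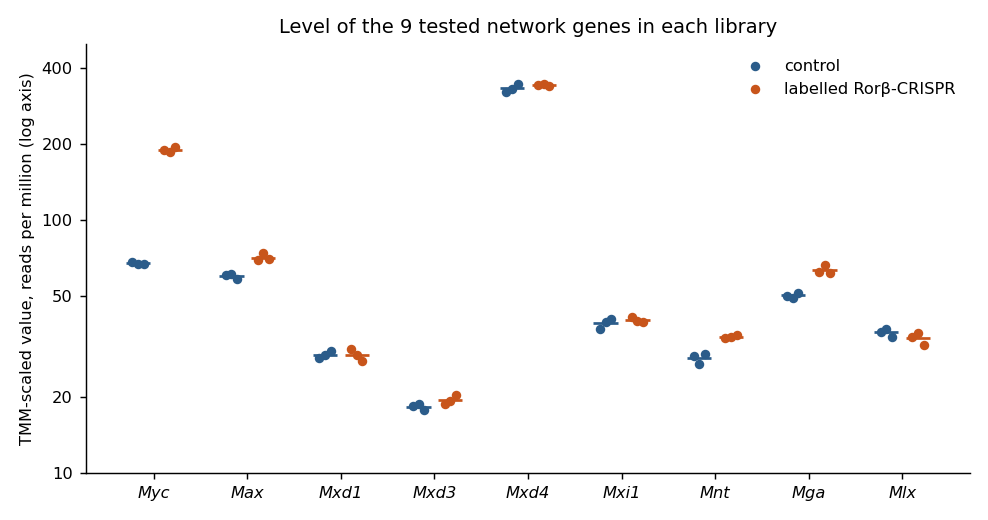
TMM-scaled value (log axis) of the 9 tested network genes in 3 control and 3 libraries labelled Rorβ-CRISPR. Points are libraries and lines are group means. Myc goes from 67.6 to 191, Max, Mnt and Mga are separated by smaller steps, and the others overlap between groups.

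**Figure D2:**
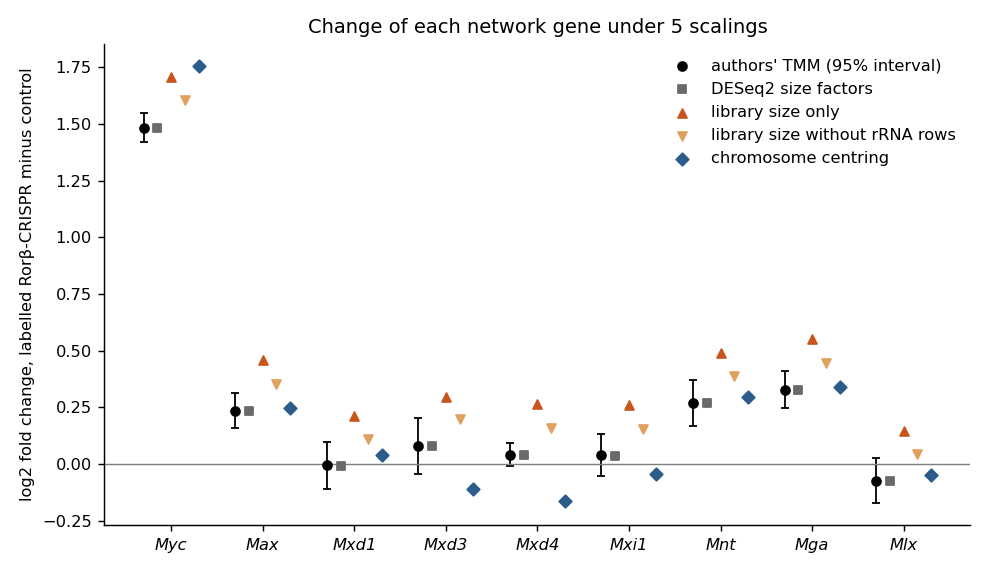
Log2 fold change of each member (labelled Rorβ-CRISPR minus control) under 5 scalings, with the 95% interval for the authors' scaling. Myc lies between 1.48 and 1.76 under all of them, whereas Mxd1, Mxd3, Mxd4, Mxi1 and Mlx lie on different sides of 0 depending on the scaling.

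Because longer transcripts give more reads, levels were compared between genes as values per kilobase of exon, using exon lengths from GENCODE vM21. Mxd4 was the most abundant member in control cells, at 86.0 ± 3.08 per kilobase (SD, n = 3). Max followed at 30.8 ± 0.680, then Myc at 27.6 ± 0.346, Mlx at 18.1 ± 0.624 and Mxd3 at 13.8 ± 0.378. Mxd1, Mnt and Mxi1 came next at 6.31 ± 0.184, 6.21 ± 0.275 and 5.90 ± 0.262 per kilobase. The ranges over libraries overlapped between Mxd1 and Mnt and between Mnt and Mxi1, so their order is not resolved. Mga came last of the measured genes at 3.62 ± 0.0775.

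In the libraries labelled Rorβ-CRISPR the order changed in few places. Mxd4 still led, at 88.5 ± 0.753 per kilobase. Myc, now at 77.9 ± 1.62, stood above Max at 36.4 ± 1.25. Mnt, at 7.53 ± 0.0970, stood above Mxd1 (6.29 ± 0.335), with which it had overlapped in control. Mxd1 overlapped with Mxi1 (6.06 ± 0.139). The levels summed over the members were 198 ± 2.16 per kilobase in control and 259 ± 1.04 in the other group. Myc made up 13.9% ± 0.325 of that sum in control and 30.1% ± 0.719 in libraries labelled Rorβ-CRISPR. The share of Mxd4 went from 43.4% ± 1.11 to 34.2% ± 0.248, although its own level was not called different. Myc divided by the sum of Mxd1, Mxd3, Mxd4 and Mxi1 was 0.257, 0.245 and 0.237 in control, against 0.672, 0.659 and 0.693 in the others. Transcripts of these 4 repressor genes together thus exceeded Myc per kilobase in every library, by a smaller margin in those labelled Rorβ-CRISPR. Mxd4 carried this excess. Myc over Mxd4 alone was 0.321 ± 0.0150 in control and 0.880 ± 0.0256 in the other group, while Mxd1, Mxd3 and Mxi1 each lay below Myc. Myc over Mnt was 4.45 ± 0.196 in control and 10.3 ± 0.150 in the other group. Ratios within a library do not depend on its scaling, but they do depend on the annotated lengths, and RNA levels do not give protein levels.

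**Figure D3:**
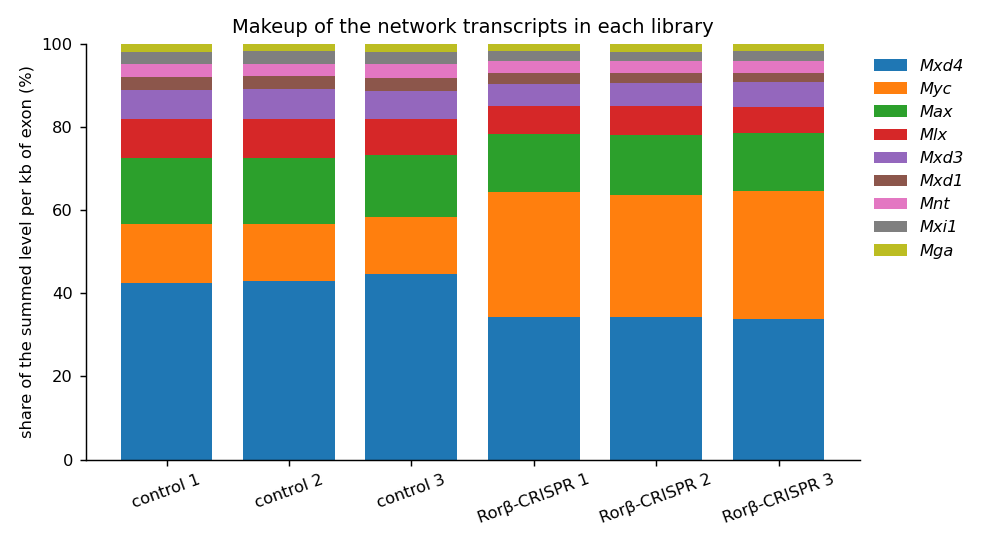
Share of each member (%) in the summed level per kilobase of exon, 1 bar for each library. Mxd4 fills 42.5% to 44.6% in control and 33.9% to 34.4% in libraries labelled Rorβ-CRISPR, while the Myc share is 13.7% to 14.3% in control and 29.3% to 30.8% in the other group. Mycn is too low to be drawn.

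Myc lies on chromosome 15. Chromosomes were taken by symbol from RefSeq (GRCm38.p6), which placed 12584 of the tested genes (93.2%). Of 479 tested genes of chromosome 15, 323 were lower and 52 higher, with a median log2 fold change of -0.26. Myc thus rose on a chromosome where most tested genes were lower, and 4 of its 479 genes had a larger log2 fold change. After the chromosome's median was removed in each library, the log2 fold change of Myc was 1.76. The 5 nearest tested genes on each side of Myc had a median of -0.43, with 8 lower and 2 higher.

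The higher neighbours were Gm5045, a gene model (0.25), and Pvt1, the long non-coding RNA gene that lies directly beside Myc and is often studied with it. Pvt1 had values of 17.9, 19.9 and 19.9 in control and 28.5, 27.4 and 29.0 in libraries labelled Rorβ-CRISPR. The groups were separate, and Pvt1 rose from 19.2 ± 1.152 to 28.3 ± 0.791 (a log2 difference of 0.54, SE 0.057, adjusted p = 9.36e-12). Beyond Pvt1, Fam49b (-0.14, or 0.083 with library size only), Asap1 (-0.61), Efr3a (-0.60) and Gm2991 (-0.34) were lower. On the other side Trib1 (-0.61), Nsmce2 (-0.52), E430025E21Rik (-0.37) and Sqle (-0.50), an enzyme gene of cholesterol synthesis, were lower too.

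**Figure D4:**
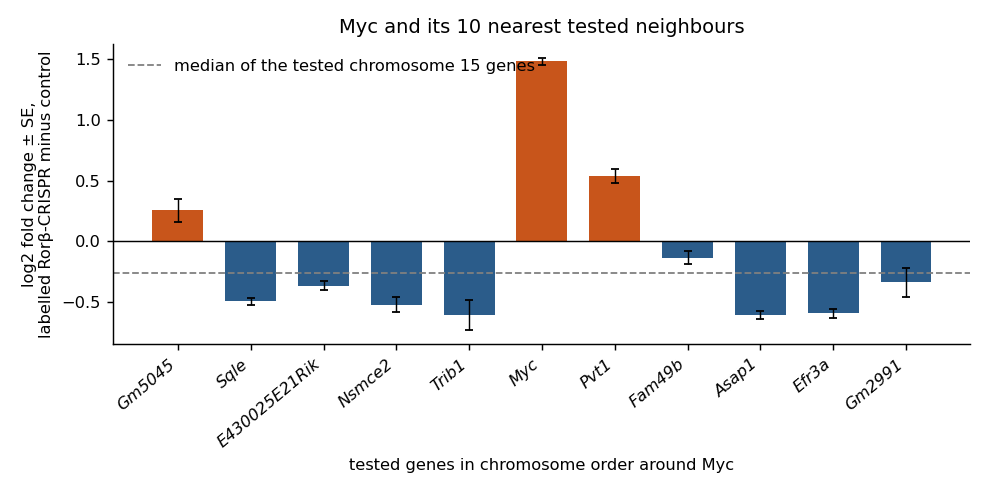
Log2 fold change (labelled Rorβ-CRISPR minus control, bars with SE) of Myc and the 10 nearest tested genes, in chromosome order and not to scale of distance. The dashed line is the median of the tested chromosome 15 genes (-0.26). Myc (1.48) and Pvt1 (0.54) stand above 0 between neighbours that lie mostly below it.

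Mxd4 lies on chromosome 5, where 62.5% of the tested genes were higher and the median was 0.21. Its 10 nearest tested neighbours had a median of 0.25, with 8 higher and 0 lower. Against that setting the log2 fold change of Mxd4 was -0.16 after chromosome centring (adjusted p = 1.66e-07), which was a call in the lower direction that the uncentred test did not give (adjusted p = 0.148). Mxd3, on chromosome 13 with a median of 0.20, went to -0.11 (adjusted p = 0.111). Max and Mga, on chromosomes 12 and 2, and Mnt and Mlx, both on chromosome 11, lie where the median was between -0.026 and -0.0075, and Max, Mga and Mnt kept their calls after centring.

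The remaining partners of MLX were looked at with it. Mlxip, which encodes MondoA, had values of 48.4, 47.1 and 44.5 in control and 66.2, 65.8 and 67.9 in libraries labelled Rorβ-CRISPR. It rose from 46.7 ± 2.00 to 66.6 ± 1.14 (a log2 difference of 0.51, SE 0.041, adjusted p = 1.39e-15), or 0.30 after centring, since it too lies on chromosome 5. Mlxipl, the gene of the liver-type partner ChREBP, averaged 0.0256 in control and 0.0642 in the other group and was not tested. Of 5 tested genes known as targets of MLX with MondoA or ChREBP, 4 rose, 0 fell and 1 did not pass (median 0.51), where 32.9% of all tested genes were called higher. Txnip, the glucose-uptake inhibitor that is the best known MondoA target, rose from 90.2 ± 7.15 to 169.7 ± 5.72 (log2 fold change 0.91), and its relative Arrdc4 from 5.50 ± 0.570 to 12.8 ± 1.45 (1.08). Hk2, a hexokinase gene, rose by 0.51 and Pfkfb3, a regulator of glycolysis, by 0.16. Klf10, on chromosome 15 and named after its values were seen, averaged 16.7 in control and 16.8 in the other group, and was called higher after centring (0.28, adjusted p = 0.000140).

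Genes known to be activated by MYC were mostly higher under the Rorβ-CRISPR label. Of 64 tested, 56 (87.5%) rose, 2 fell and 6 were not called, where 32.9% of all tested genes were called higher. Their median log2 fold change was 0.42, or 0.64 with library size only (median of all genes 0.21) and 0.42 after chromosome centring. Genes of ribosome production are prominent in the list. Ncl, the gene of nucleolin, had values of 518, 524 and 517 in control and 855, 839 and 840.3 in the other group (log2 fold change 0.70, SE 0.021, adjusted p = 1.20e-32). Npm1, the gene of nucleophosmin, rose from 418 ± 4.22 to 655 ± 3.76, and Hspd1, a mitochondrial chaperone gene, from 142 ± 0.834 to 261 ± 5.84. Dkc1, the gene of the pseudouridine synthase dyskerin, rose from 26.2 ± 0.695 to 80.3 ± 2.08 (log2 fold change 1.58), the largest in the list. It lies on chromosome X, where the median was 0.65, and after centring it stood at 0.93.

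The members of that list that were called lower, named with those not called after their values were seen, were Ccnd2, a cyclin D gene, which fell from 932 ± 16.0 to 679 ± 12.3 (log2 fold change -0.46), and Ipo4, an importin gene on chromosome 14 (-0.41). After chromosome centring Ccnd2 stayed lower (-0.41), whereas Ipo4 turned to 0.11 and was called higher (adjusted p = 0.0109). Bop1, Eif4e, Ldha, Odc1, Phb and Supv3l1 were not called. Among these are Odc1, the polyamine synthesis gene (0.078), and Ldha, the lactate dehydrogenase gene (-0.0063), both textbook MYC targets. Tested against a fold of 1.5, 9 of the 64 were called higher, where 3.06% of all tested genes were. Most of the rises thus did not pass at that size. The list was chosen with earlier results of these data known and is not independent evidence of its direction.

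Of 9 tested genes known to be repressed by MYC, 8 fell, 0 rose and 1 did not pass, and the median was -0.75, where 33.3% of all tested genes were called lower. Gadd45a, a growth arrest gene, had values of 8.39, 9.24 and 9.53 in control and 1.44, 2.11 and 1.81 in libraries labelled Rorβ-CRISPR (log2 fold change -1.86, adjusted p = 6.18e-22). Clu, the clusterin gene on chromosome 14, fell from 9.06 ± 0.263 to 1.66 ± 0.245 (log2 fold change -1.92, or -1.41 after centring), Gas1, a membrane protein gene of growth arrest, from 145 ± 7.32 to 81.7 ± 0.828, and the growth factor receptor gene Pdgfrb from 291 ± 5.88 to 173 ± 2.89. The cell cycle inhibitor genes Cdkn1a and Cdkn1b, chosen after their values were seen, fell too, with log2 fold changes of -0.46 and -0.31, the latter not called with library size only (-0.087). Cebpa, also named after its value was seen, was not called, at 0.090. With library size only, 6 of the 9 fell and 1 rose, where 14.6% of all tested genes were lower and 54% higher.

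Of 15 tested factors known to act on the Myc gene, 8 rose (53.3%), 5 fell (33.3%) and 2 were not called (median 0.11), beside 32.9% higher and 33.3% lower over all tested genes. Tcf7, a Wnt pathway factor known to bind Myc control regions, had 20.1, 19.7 and 19.0 in control and 99.7, 113 and 99.6 in libraries labelled Rorβ-CRISPR, a log2 fold change of 2.35 with separate groups. Lef1, of the same family, rose from 5.15 ± 0.152 to 13.9 ± 0.559 (1.28), and Fubp1, which binds a single-stranded element upstream of Myc, from 85.6 ± 1.97 to 133 ± 1.88 (0.63). Stat3, a cytokine-activated factor, fell from 139.5 ± 6.79 to 90.2 ± 0.749 (-0.62).

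Calls among the protein partners went both ways, as they did over all tested genes (32.9% higher, 33.3% lower). Among 16 MYC coactivator genes, 8 rose (50%) and 5 fell (31.2%), with a median of 0.09. Ep400, a chromatin remodeller gene, rose by 0.54, Trrap, its scaffold partner, by 0.29 and Ruvbl1, a helicase gene of the same complex, by 0.51. Hcfc1, the gene of a host cell factor, rose by 0.32 but stood at -0.33 after centring on chromosome X. Ep400 and Trrap lie on chromosome 5 and stood at 0.34 and 0.085 after centring. Of 17 genes of the SIN3 and NCOR corepressors, 6 rose (35.3%) and 7 fell (41.2%), with a median of -0.02, shares near those of all tested genes. Rbbp7, a histone-binding subunit gene on chromosome X, rose by 0.72 (0.073 after centring), the SIN3 subunit gene Suds3, on chromosome 5, by 0.29 (0.081 and not called after centring) and the deacetylase gene Hdac2 by 0.20, while its close relative Hdac1 fell (-0.30).

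In the MGA Polycomb complex 3 of 10 genes rose and 5 fell, with a median of -0.05, beside 32.9% higher and 33.3% lower over all tested genes. Pcgf6, the subunit gene that defines this complex, had values of 11.5, 9.35 and 10.4 in control and 19.3, 19.8 and 19.9 in libraries labelled Rorβ-CRISPR (log2 fold change 0.86, SE 0.071, adjusted p = 2.47e-15). Tfdp1, the gene of an E2F partner, rose by 0.29, while E2f6 (-0.25) and Ring1 (-0.30) fell. Of 17 genes that act on the stability of MYC protein, 7 rose (41.2%) and 6 fell (35.3%), with a median of -0.02, again near the shares of all tested genes. Huwe1, a ubiquitin ligase gene on chromosome X, rose by 0.81 (0.16 after centring), the deubiquitinase gene Usp28 from 20.4 ± 2.14 to 30.0 ± 1.14 and Set, the gene of a phosphatase inhibitor, by 0.32. The kinase gene Gsk3b fell, with a log2 fold change of -0.26, and so did, chosen after its values were seen, the ubiquitin ligase gene Fbxw7 (-0.24). The falls in these partner lists hold for the authors' scaling. With library size only, 0 genes were lower among the coactivators, corepressors, MGA complex and turnover genes, and 10, 10, 7 and 10 were higher. That scaling called 54% of all tested genes higher and 14.6% lower.

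**Figure D5:**
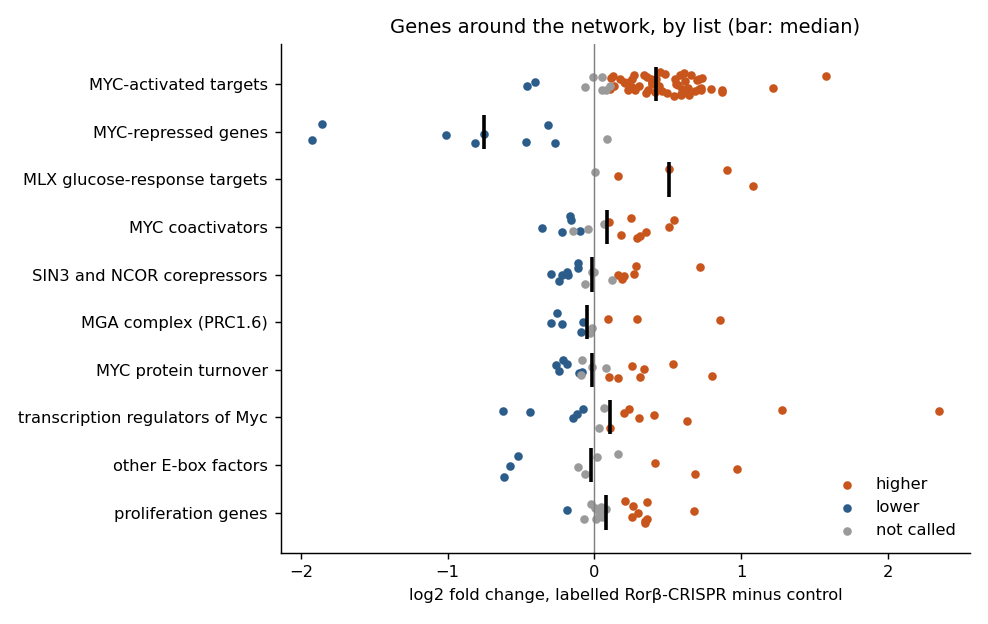
Log2 fold change (labelled Rorβ-CRISPR minus control) of the tested genes in 10 lists around the network. Points are genes, coloured by whether they were called higher, lower or not called, and vertical bars are list medians. The MYC-activated list (56 of 64 higher) and the MYC-repressed list (8 of 9 lower) lie mostly on one side of 0, and the partner lists lie on both sides.

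Genes were ranked by likeness to Myc over the 6 libraries. By the root mean square difference of log2(value + 1), after the control mean was removed, the nearest was Nsg1, a neuronal vesicle protein gene, at 0.028. Map1b, a microtubule protein gene, followed at 0.055, Dchs2, a cadherin gene, at 0.058 and Col23a1, a membrane collagen gene, at 0.062. Nsg1 rose from 299 ± 5.80 to 839.9 ± 10.5, a log2 fold change of 1.49. With 2 groups of 3 libraries, this likeness is mostly an equal step between groups. For Mxd3 the nearest were Smpd4, Foxk1, Zc3h18 and Ptpn21 (0.017 to 0.021), and for Mxd4 they were Ormdl2, Pafah1b2, Slc38a10 and Uqcrc2 (0.014 to 0.016).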

How the data were processed

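Trizol RNA was made into libraries with an Encore kit, per the labels' protocols. TopHat2 2.0.6, HTSeq and the mm9 build are named in the submitters' processing notes. Not given in the sources used here: annotation, strand setting and the test behind the authors' deposited p-values and q-values. Each library's deposited signal carries the authors' TMM scaling, per the file headers. Median counts, median signal and a fold ratio were deposited too. Within 0.01 of a whole number, 100% of values were multiples of what 1 read is worth, and taking medians of those recovered reads returned the deposited median count for each of 43346 entries.

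Genes were tested by robust limma-trend (log2(value + 1), all 6 libraries, no covariate) where 3 or more libraries reached a value of 1, which left 13498. A pseudocount of 1 understates changes of low genes. edgeR's quasi-likelihood test and DESeq2 were run on the recovered reads as alternatives. On recovered reads edgeR called 66.1% of tested genes, against 66.2%. Gene lists come from general knowledge. The members and lists were chosen with earlier results of these data known. Named genes are the members, up to 4 called genes of smallest adjusted p in each list (the 2 most abundant where fewer than 2 were called), the neighbours of Myc and the 4 genes nearest in pattern to Myc, Mxd3 and Mxd4. Genes at 0 in the marker lists, Mycl, Yam1, AY036118, Lars2 and the genes marked as such in the text fall outside this rule and were chosen after their values were seen. Coordinates refer to GRCm38.p6 and are given for promoters only, since the authors used another build. Counting intervals and floors (3 reads) cover counting error only. Tools were limma 3.58.1, DESeq2 1.42.0 and edgeR 4.0.16 under R 4.3.3, with figures from matplotlib 3.10.9 under Python 3.11.15.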

Additional observations from a re-analysis of the deposited data

How the results depend on the processing

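Myc, Max, Mnt and Mga kept their direction under every alternative run, and their calls under all of them except the test against a fold of 1.5, which left 1 member called. The other members changed with scaling. With library size only, 8 members were higher, beside 54% of all tested genes. With library size taken without the ribosomal RNA rows (chosen after seeing the data), 7 members were higher, beside 6360 of 13751 tested genes. Mxd1 then stood at 0.21 and 0.11 and Mlx at 0.15 and 0.044. Chromosome centring gave 1 lower member, Mxd4 at -0.16, with Mxd1 at 0.042, Mxd3 at -0.11 and Mxi1 at -0.042. TMM recomputed without the ribosomal RNA rows, also chosen after seeing the data, put Mxd1 at 0.0059. Leaving out single libraries moved Mxd1 between -0.041 and 0.034, above 0 without control replicate 3 (0.015) or Rorβ-CRISPR replicate 3 (0.034). It gave 4 to 5 members higher and 0 lower, the fifth being Mxd4 without control replicate 3.

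Among all genes, library size only gave 7291 higher and 1975 lower, and the test against a fold of 1.5 gave 413 and 645. With library size taken without the ribosomal RNA rows, 67% of calls were higher. In the MYC-activated list the fold test left 9 of 64 higher and 0 lower, beside 3.06% and 4.78% of all tested genes. Centring left 1 lower. In the MYC-repressed list the fold test left 5 of 9 lower, beside 4.78% of all tested genes, and both library size scalings gave 1 higher. Leaving out single libraries gave 54 to 56 higher and 2 to 3 lower in the former and 8 lower in the latter. The cause of these shifts was not tested. With the replicate number as a block, 4 members were higher, as were 4502 of all genes, with 4551 lower. Deviations of same-numbered libraries correlated at -0.056, 0.167 and 0.127, and those of differently numbered libraries at -0.211 to 0.109. These values do not settle whether the numbers are pairs, and the main test did not take them as pairs. At this depth Mycn could not be compared.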

Other observations

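Among 19 tested genes of dividing cells, 9 rose (47.4%), 1 fell (5.26%) and 9 did not pass, beside 32.9% higher and 33.3% lower over all tested genes. The list's median difference (log2) was 0.080, or 0.30 with library size only, where the median of all genes was 0.21. The replication licensing genes Mcm6, Mcm3 and Mcm7 rose by 0.68, 0.36 and 0.35, and Rrm2, the gene of a ribonucleotide reductase subunit, by 0.26. Chosen after their values were seen, as was Ccnb2, the proliferation marker genes Mki67 (191 ± 10.9 in control and 192 ± 7.08 in the other group) and Top2a (265 ± 2.17 and 261 ± 10.2) were not called. Ccnb2, a mitotic cyclin gene, was the 1 that fell (-0.19, or 0.033 and not called with library size only). With that scaling, 17 of the 19 rose and 0 fell, beside 54% higher and 14.6% lower over all tested genes.

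Other transcription factors that bind E-box-like sites had 3 of 10 tested higher (30%) and 3 lower (30%), shares near those of all tested genes, with a median of -0.021. Tfap4, itself known as a MYC target, rose from 9.56 ± 1.29 to 19.6 ± 0.781 (log2 fold change 0.97). Tfe3, a lysosomal gene regulator on chromosome X, rose by 0.69 and stood at 0.039 after chromosome centring. Srebf2, the regulator of cholesterol synthesis genes on chromosome 15, fell from 245 ± 2.66 to 165 ± 2.87 (-0.57), and Bhlhe40, a clock-linked repressor gene, fell from 74.8 ± 1.17 to 48.6 ± 1.26 (-0.61).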
